A study of Mus musculus with 15 samples.

Results

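Npy, the gene of neuropeptide Y, was followed across 15 libraries of mouse bone macrophages, as 1 gene of the 16886 analysed and 1 transcript of the 54327 analysed. It was chosen by its measured counts, because it was close to absent in the libraries of VLDLR knockout mice and abundant in all others. Its own comparisons with the VLDLR knockout are therefore given as levels without a test. The 16 genes whose annotated start lies within 1 Mb of the start of Npy are described as its surroundings.

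Neuropeptide Y is a short, amidated peptide that is best known from neurons, from sympathetic nerve endings and from chromaffin cells of the adrenal medulla. It is cut out of a larger precursor in the secretory pathway, stored in vesicles, released, and shortened outside the cell by peptidases. Its receptors couple to inhibitory G proteins that lower cyclic AMP, and macrophages and, in rodents, megakaryocytes are among the cells outside the nervous system in which it has been described.

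The macrophages came from bone of C57BL6J mice. Culture lasted 14 days in medium with M-CSF at 20 ng/ml, a cytokine on which macrophages depend to differentiate. There were 5 libraries of VLDLR_KO mice (VLDLR-/-, lacking the very low density lipoprotein receptor), 5 of ROBO4_KO mice (ROBO4-/-, lacking an endothelial guidance receptor) and 5 of wild-type mice (WT), all with the same treatment. The labels do not say which exons the knockout alleles remove, how many mice stand behind a library, or the age of the mice, so p-values measure the spread between these libraries. The sample codes hold a digit and the letter B in either order, and the labels do not explain the 2 forms. VLDLR_KO replicates 1 and 2, ROBO4_KO replicates 1 and 2 and WT replicates 3, 4 and 5 have the digit before B, and the other 8 libraries have it after B.

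Gene counts summed to between 18132866 and 19005966 per library. Vldlr had 1 to 9 counts in VLDLR_KO libraries, 2 to 38 in ROBO4_KO libraries and 5 to 36 in WT libraries, so the groups overlapped and the gene was too low to check the label. Robo4 had 0 counts in all 5 ROBO4_KO libraries and 0 to 4 counts in WT libraries, which also overlapped. All 10 macrophage markers examined were detected, with Csf1r, the M-CSF receptor, at 1469 to 2496 CPM in VLDLR_KO, 1448 to 1594 CPM in ROBO4_KO and 1136 to 1655 CPM in WT libraries. CPM, the usual depth-scaled unit, are counts divided by the library total and its TMM factor. Over all genes, the code form was associated with 38.1% of those tested (edgeR quasi-likelihood test with genotype in the fit, adjusted p under 0.05), so values within each form stand beside the pooled ones.

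Npy (Entrez gene 109648) lies on the plus strand of chromosome 6 at chr6:49822710-49829507 in GRCm38.p6. Vldlr is on chromosome 19. Among the genes analysed, the nearest on its left is Fam221a, which ends 433 kb before Npy, and the nearest on its right is Mpp6, which starts 281 kb after the end of Npy. The RefSeq promoter window of Npy, 250 bases before the annotated start and 50 bases after it (GRCm38.p6, plus strand, chr6:49822460-49822759), is printed because it is the start of the gene that gave almost no reads in VLDLR_KO libraries. Capitals mark the letters found by the motif search.
Npy promoter: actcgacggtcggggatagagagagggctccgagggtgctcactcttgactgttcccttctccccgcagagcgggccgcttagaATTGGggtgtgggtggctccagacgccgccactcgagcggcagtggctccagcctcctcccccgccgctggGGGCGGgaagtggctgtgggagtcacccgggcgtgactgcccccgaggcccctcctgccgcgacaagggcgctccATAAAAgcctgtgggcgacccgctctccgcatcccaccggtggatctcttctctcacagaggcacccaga

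The window held 68.0% G and C, against a median of 52.7% over the 32851 promoter windows of the same length. Both strands were searched for 7 short motifs. The letters ATAAAA matched once, beginning 20 bases before the annotated start, and was present in 18.5% of all windows. GGGCGG, the GC box, matched once at 95 bases before the start and was present in 35.7% of all windows. CCAAT matched once on the minus strand, 166 bases before the start, and was present in 37.4% of all windows. TATAAA, TGACGTCA (the cyclic AMP response element), TGANTCA (the AP-1 site) and GAGGAA (the core of the PU.1 site) did not match, and were present in 13.6%, 1.79%, 7.81% and 28.3% of all windows.

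Npy was counted 0, 0, 0, 1 and 0 times in VLDLR_KO replicates 1 to 5. It was counted 3198, 3256, 2267, 2503 and 2488 times in ROBO4_KO replicates 1 to 5. In WT replicates 1 to 5 it was counted 2186, 1607, 4346, 4180 and 5088 times. The VLDLR_KO libraries did not overlap with any other library, and the single read was in replicate 4. For a count of 0 the two-sided 95% Poisson interval reaches 3.69 counts, and for the 1 count of replicate 4 it reaches 5.57. A set floor of 3 counts is 0.159 to 0.178 CPM in the VLDLR_KO libraries without a read. The 1 count of VLDLR_KO against 13712 counts of ROBO4_KO gave a level 13155-fold lower in VLDLR_KO (exact 95% counting interval 2361-fold to 519629-fold). Against the 17407 counts of WT the level was 17156-fold lower in VLDLR_KO (3079-fold to 677648-fold). These intervals cover counting error only. In bulk libraries, fewer cells that make Npy and less Npy RNA per cell cannot be told apart.

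Per length, Npy stood high among the genes of the other 2 genotypes. The authors' length-scaled values (FPKM) of Npy were 440, 434, 299.5, 331 and 335 in ROBO4_KO replicates 1 to 5. They were 297, 222, 575, 568.5 and 693 in WT replicates 1 to 5. Csf1r had 418 to 467 FPKM in ROBO4_KO and 328 to 449 FPKM in WT libraries, so Npy was near the range of the M-CSF receptor. Adgre1, the F4/80 antigen of macrophages, had 353 to 398 FPKM in ROBO4_KO and 342 to 376 FPKM in WT libraries. Npy ranked between place 171 and place 259 of the 16886 genes by FPKM in ROBO4_KO libraries and between place 123 and place 333 in WT libraries. In VLDLR_KO libraries it was listed at 0 FPKM in 4 libraries and at 0.13 FPKM in replicate 4.

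**Figure D1:**
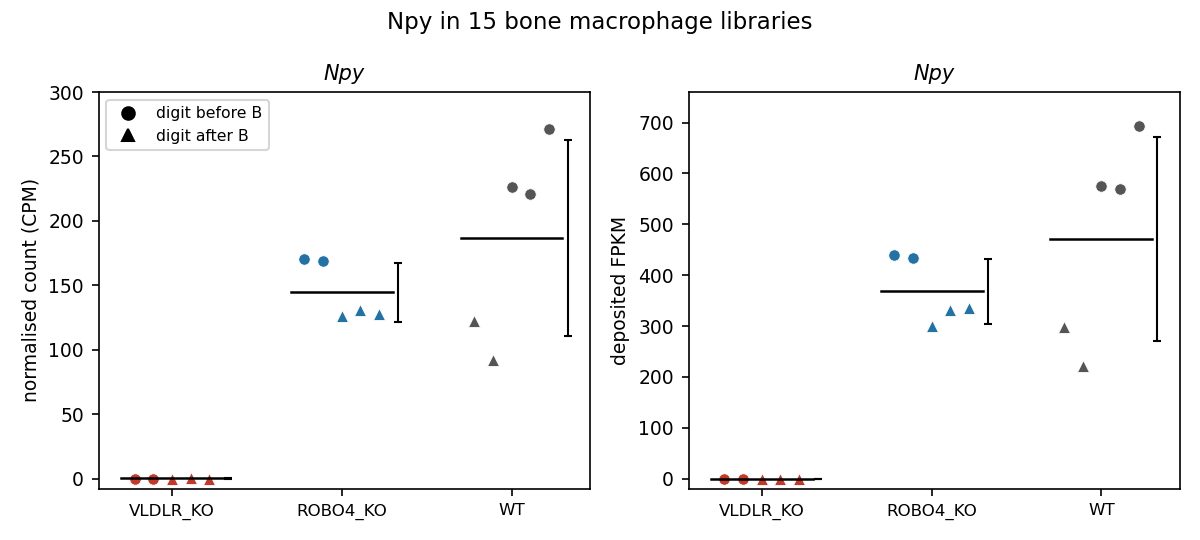
Npy in every library as normalised count (CPM, left) and as deposited FPKM (right), with genotype on the x axis. Circles and triangles are libraries with the digit before and after B, horizontal lines are genotype means and vertical bars are SD (n = 5 each); the VLDLR_KO libraries sit at or next to 0, and circles lie above triangles in ROBO4_KO and WT.

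Only 1 Npy transcript, NM_023456.3, was analysed, and its counts equalled the gene's counts in every library. Its level therefore gave no further information, and its ROBO4_KO against WT log2 fold change over all tested transcripts was -0.36 (SE 0.27, adjusted p = 1 by edgeR's quasi-likelihood test).

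Whether Npy differed between ROBO4_KO and WT was asked next. Npy averaged 144.5 ± 22.8 CPM in ROBO4_KO and 186 ± 75.9 CPM in WT (SD, n = 5 each), and the groups overlapped. The log2 fold change of ROBO4_KO against WT was -0.37 (SE 0.25, 95% interval -0.89 to 0.16), with an adjusted p of 1 by edgeR's quasi-likelihood test over all 11668 tested genes. In this comparison 0.334% of tested genes were called, meaning an adjusted p under 0.05.

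Npy was separated by code form within both genotypes. With the digit before B, Npy had 170.4 and 169 CPM in the 2 ROBO4_KO libraries, against 226, 221 and 271 CPM in the 3 WT libraries. With the digit after B, Npy had 126, 130.4 and 127 CPM in the 3 ROBO4_KO libraries, against 122 and 91.7 CPM in the 2 WT libraries. Ordered by mean, Npy was highest in WT before B (239 ± 27.6 CPM), then in ROBO4_KO before B (169 ± 1.28), ROBO4_KO after B (128 ± 2.31), WT after B (107 ± 21.6) and VLDLR_KO. No 2 neighbours in this order overlapped in their libraries, although the highest WT library after B, at 122 CPM, lay close to the lowest ROBO4_KO library after B, at 126 CPM. Npy RNA was 0.77 log2 units higher with the digit before B than with it after B (SE 0.15, adjusted p = 0.00109 by edgeR's quasi-likelihood test with genotype in the fit). An exact permutation test of forms within genotype over the 10 ROBO4_KO and WT libraries gave a two-sided p of 0.01, the smallest its 100 arrangements can give.

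The ROBO4_KO difference ran in opposite directions in the 2 forms. With the digit before B the log2 fold change of ROBO4_KO against WT was -0.50 (SE 0.13, adjusted p = 0.585), in a fit in which 0.168% of tested genes were called. With the digit after B it was 0.26 (SE 0.13, adjusted p = 0.457), in a fit in which 1.60% were called. The difference between the forms was -0.76 log2 units (SE 0.20, 95% interval -1.19 to -0.32), which had an unadjusted p of 0.00249 and an adjusted p of 0.277 in edgeR's quasi-likelihood fit, where 0.403% of genes were called. DESeq2 gave the same difference, -0.76, an adjusted p of 0.025. In the authors' deposited table, whose fold change runs the other way, WT over ROBO4_KO, Npy had a log2 fold change of 0.50 (q = 0.000739) with the digit before B and -0.26 (q = 0.642) with the digit after B. The direction of the deposited values was the same as here in both forms.

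The libraries of 1 genotype and form differed in how far they spread. As TMM-scaled CPM the 3 ROBO4_KO libraries after B had a coefficient of variation of 1.81%, and as counts and FPKM it was 5.46% and 6.07%, where counting alone gives 2.03%. In WT the coefficient of the CPM was 11.5% before B and 20.2% after B, where counting alone gives 1.48% and 2.30%.

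Of the 16 genes around Npy, 12 were abundant enough to be tested. The other 4 were Aoc1, Svs1, 4921507P07Rik and Npvf, the gene of another neuropeptide precursor, and none of them exceeded 2 counts in any library. The tested neighbours ranged from Fam221a, with 7 to 30 counts per library, to Gpnmb, a macrophage glycoprotein linked with lysosomes, with 227171 to 578328 counts. All 12 were detected in every VLDLR_KO library.

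The analysed genes nearest to Npy on either side were not called in any of the 3 comparisons. Mpp6, a membrane scaffold protein gene that starts 288 kb to the right, had 34.6, 38.2, 58.6, 59.95 and 62.5 CPM in VLDLR_KO, 38.6, 36.0, 62.0, 61.7 and 61.3 CPM in ROBO4_KO and 55.4, 60.7, 37.3, 42.0 and 41.6 CPM in WT libraries. Its libraries were split by code form and not by genotype, and VLDLR_KO differed from WT by 0.10 log2 units (SE 0.21, adjusted p = 0.81 by edgeR). Fam221a, which starts 455 kb to the left, had 0.489 to 1.59 CPM in VLDLR_KO, 0.389 to 1.48 CPM in ROBO4_KO and 0.688 to 1.12 CPM in WT libraries. Fam221a gave 0.01 log2 units for VLDLR_KO against WT (SE 0.38, adjusted p = 0.991).

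In VLDLR_KO against WT, 2 of the 12 tested neighbours were called, both lower, where 9.31% of all tested genes were called. The first was Gsdme, the gene of a pore-forming gasdermin, which starts 385 kb to the right of Npy. It had 4.24, 5.59, 7.03, 7.81 and 8.74 CPM in VLDLR_KO, 13.2, 12.2, 14.4, 13.2 and 15.3 CPM in ROBO4_KO and 13.4, 15.2, 11.2, 12.6 and 13.9 CPM in WT libraries. Every VLDLR_KO library was below every other library. Gsdme fell by 0.99 log2 units in VLDLR_KO against WT (SE 0.17, adjusted p = 0.00157) and by 1.03 against ROBO4_KO (SE 0.17, adjusted p = 0.00121, edgeR). It fell by 1.35 before B and by 0.86 after B in VLDLR_KO against WT (adjusted p = 0.00384 and 0.00475), where 20.5% and 15.7% of tested genes were called.

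The second was Igf2bp3, the gene of an RNA-binding protein of the IGF2 mRNA-binding family, which starts 737 kb to the left. It had 6.85, 4.70, 2.85, 7.81 and 2.75 CPM in VLDLR_KO, 11.4, 12.6, 17.3, 10.1 and 7.17 CPM in ROBO4_KO and 11.8, 11.5, 33.9, 35.4 and 28.1 CPM in WT libraries. The VLDLR_KO libraries were below all WT libraries, while 1 ROBO4_KO library lay within the VLDLR_KO range. Igf2bp3 fell by 2.27 log2 units in VLDLR_KO against WT (SE 0.40, adjusted p = 0.00194, edgeR). Within the forms its log2 fold changes were -2.48 before B (adjusted p = 0.000581) and -1.38 after B (adjusted p = 0.0902), and the difference between the forms itself was not called (adjusted p = 0.203). Against ROBO4_KO its log2 fold change was -1.23 (SE 0.39, adjusted p = 0.0703), and Gsdme was the 1 neighbour called, where 7.61% of all genes were called; without VLDLR_KO replicate 4 there were 2. In ROBO4_KO against WT no neighbour was called by edgeR or DESeq2, and 1 of the 12 had an unadjusted p under 0.05. In the deposited coordinates Gsdme overlaps Mpp6, and Igf2bp3 overlaps Malsu1, and each of these genes lies on the plus strand. In RefSeq coordinates Mpp6 ends at 50199154, before Gsdme starts at 50207401, while Igf2bp3 and Malsu1 still overlap. Strand cannot separate genes on the same strand. How reads within overlaps were assigned is not given in the sources used here, so such reads cannot be told apart.

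**Figure D2:**
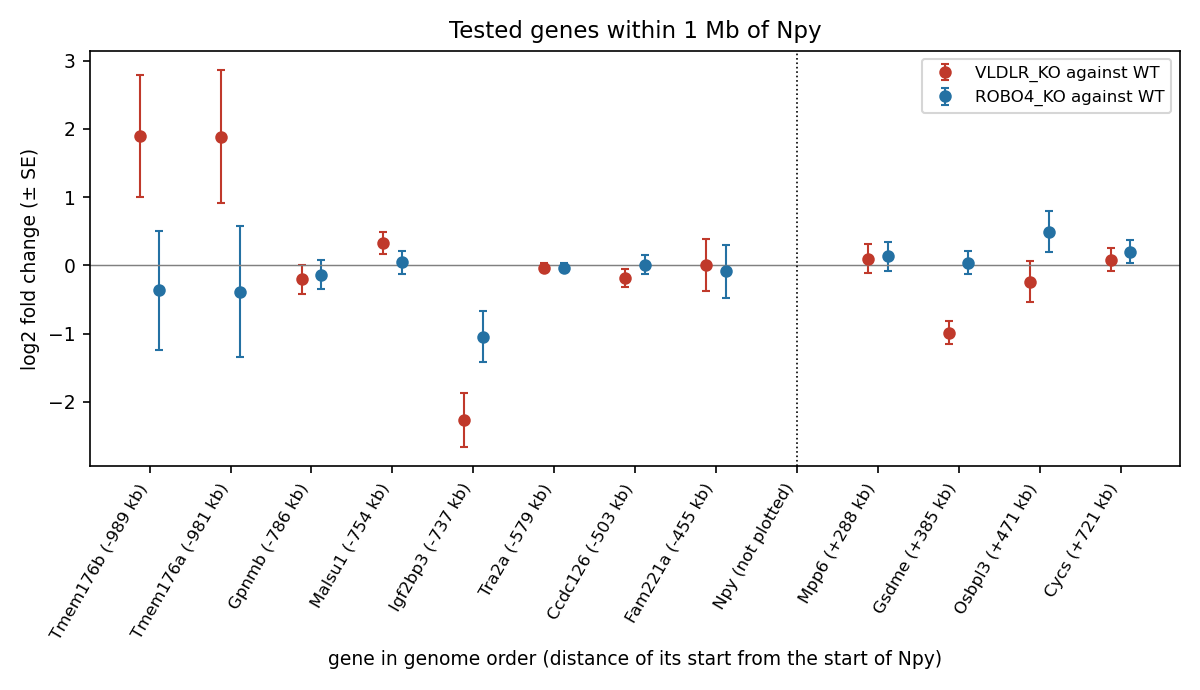
Log2 fold change (± SE) of the 12 tested genes within 1 Mb of Npy, in genome order, in VLDLR_KO against WT and in ROBO4_KO against WT; distances are from the start of Npy in kb. Gsdme (-0.99) and Igf2bp3 (-2.27) are the called genes in VLDLR_KO, and the flanking genes Fam221a and Mpp6 lie near 0.

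At the far left of the window, Tmem176b and Tmem176a, which encode related membrane proteins of myeloid cells, moved in 1 form of sample code. Tmem176b had 298, 379.6, 21.1, 13.8 and 21.5 CPM in VLDLR_KO, 52.2, 63.4, 8.78, 16.1 and 12.03 CPM in ROBO4_KO and 20.2, 25.7, 61.1, 29.0 and 60.7 CPM in WT libraries. The 2 VLDLR_KO libraries with the digit before B were above every other library, and the 3 with it after B lay within the range of the other genotypes. Tmem176b was higher in VLDLR_KO than in WT by 2.76 log2 units before B (adjusted p = 0.00176) and differed by -0.29 after B (adjusted p = 0.486). The difference between the forms was 3.04 log2 units (adjusted p = 0.00102, edgeR interaction term, a test added after the values were seen), in a fit in which 15.2% of genes were called. Tmem176a, which overlaps it, gave 3.48 (adjusted p = 0.00109). Neither was called in VLDLR_KO against WT over both forms (adjusted p = 0.208 and 0.256).

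In VLDLR_KO against WT, the 12 tested neighbours had a median log2 fold change of -0.01, beside 0.03 over all tested genes. Gpnmb itself averaged 22016 ± 7148 CPM in VLDLR_KO, 23074 ± 3702 CPM in ROBO4_KO and 25367 ± 4842 CPM in WT (SD, n = 5 each), with adjusted p-values of 0.594 in VLDLR_KO against WT and 0.885 in VLDLR_KO against ROBO4_KO.

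**Figure D3:**
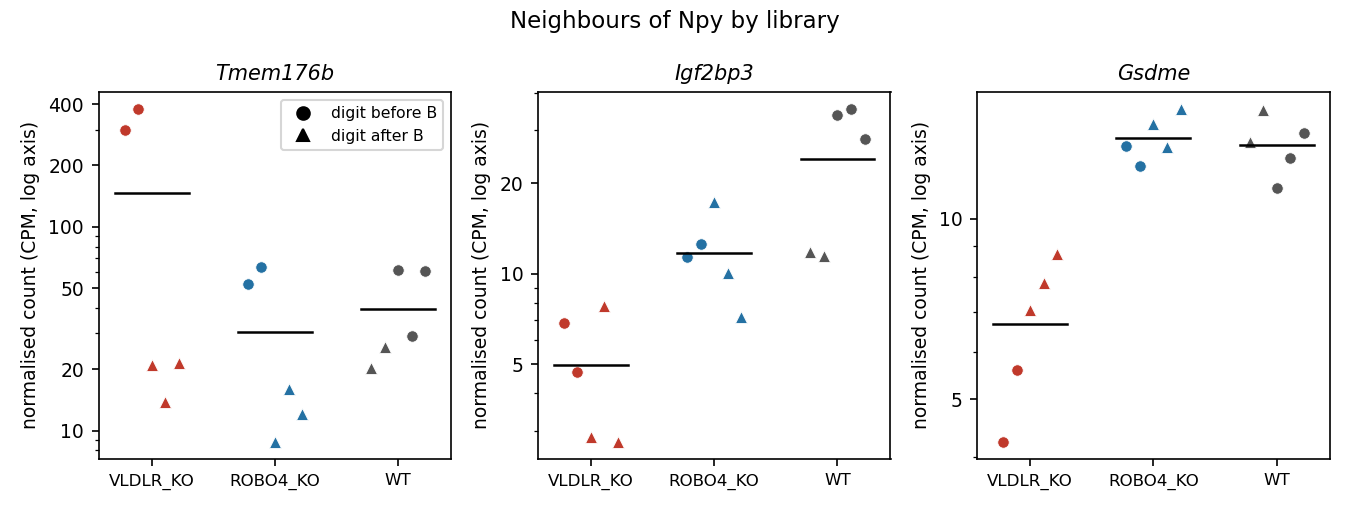
Tmem176b, Igf2bp3 and Gsdme in every library (CPM, log axis) by genotype, with circles for the digit before B, triangles for the digit after B and lines for genotype means. Tmem176b is high in the 2 VLDLR_KO circles, 298 and 379.6 CPM, and Gsdme is below 9 CPM in all VLDLR_KO libraries.

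Of the NPY system beyond the ligand, the 1 receptor gene analysed was close to 0, and genes of peptide processing and of signalling were detected. Of the 5 receptor genes listed, Npy1r was analysed, with 0 counts in all 5 VLDLR_KO libraries, 0 to 1 in ROBO4_KO libraries and 0 to 2 in WT libraries, and it was too low to be tested. The related ligands Pyy and Ppy and the other 4 receptors were not analysed here. Of 35 other neuropeptide and peptide hormone genes, 23 were analysed and 2 were tested, Nmb and Penk, neither of which was called in any of the 3 comparisons. The 23 genes summed to 3.33 to 5.91 CPM in VLDLR_KO, 2.72 to 6.35 CPM in ROBO4_KO and 2.59 to 6.93 CPM in WT libraries, far below Npy alone in ROBO4_KO and WT.

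The lists of NPY-related genes held 94 genes besides Npy, of which 75 were analysed and 34 were tested. In VLDLR_KO against WT, 2 of the 34 rose and 3 fell, where 9.31% of all tested genes were called, with a median log2 fold change of -0.00 against 0.03 over all tested genes. In VLDLR_KO against ROBO4_KO, 1 rose and 3 fell, where 7.61% of all tested genes were called, with a median of -0.10 against 0.03. In ROBO4_KO against WT, 0 of 34 were called by edgeR or DESeq2, and 0 had an unadjusted p under 0.05. Leaving out WT replicate 3, 4 or 5 or VLDLR_KO replicate 3 or 5 left 3 called genes in VLDLR_KO against WT, and leaving out VLDLR_KO replicate 2 gave 8. In VLDLR_KO against ROBO4_KO, leaving out ROBO4_KO replicate 1 or 2 or VLDLR_KO replicate 1 left 2.

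Of 7 genes that process neuropeptide precursors, 4 were tested and 1, Cpe, was called lower in VLDLR_KO. Of all tested genes, 9.31% were called in VLDLR_KO against WT and 7.61% in VLDLR_KO against ROBO4_KO. Cpe encodes carboxypeptidase E, which trims basic residues from the cut ends of peptide precursors. It had 7.12, 7.37, 4.49, 5.86 and 2.91 CPM in VLDLR_KO, 63.9, 85.3, 10.7, 13.7 and 10.2 CPM in ROBO4_KO and 8.67, 8.73, 69.6, 61.7 and 52.6 CPM in WT libraries. Every VLDLR_KO library was below every other library, and the high values were the ROBO4_KO and WT libraries with the digit before B. Cpe fell by 2.86 log2 units in VLDLR_KO against WT (SE 0.75, adjusted p = 0.0265) and by 2.73 against ROBO4_KO (SE 0.75, adjusted p = 0.0368, edgeR). Before B it fell by 3.07 and after B by 0.98 against WT (adjusted p = 0.000207 and 0.0405), a difference between the forms of -2.10 (adjusted p = 0.00211). Without WT replicate 3, 4 or 5 or VLDLR_KO replicate 3 or 5 the adjusted p against WT was 0.0524 to 0.0682. Without ROBO4_KO replicate 1 or 2 or any 1 VLDLR_KO library the adjusted p against ROBO4_KO was 0.0527 to 0.0991.

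The other 3 tested processing genes were not called over both forms. Pcsk1, a convertase that cuts peptide precursors, had 0.924, 0.951, 0.264, 0.167 and 0 CPM in VLDLR_KO, 3.30, 4.19, 0.222, 0.782 and 1.02 CPM in ROBO4_KO and 0.447, 0.228, 1.93, 1.75 and 1.23 CPM in WT libraries. Its groups overlapped, and within the forms it was called in VLDLR_KO against ROBO4_KO before B (log2 fold change -1.98, adjusted p = 0.0152, edgeR). Cpd, a related carboxypeptidase, averaged 294 CPM in VLDLR_KO, 292 CPM in ROBO4_KO and 295 CPM in WT, with an adjusted p of 0.996 in VLDLR_KO against WT. Pam, the enzyme that amidates peptide ends, averaged 66.3, 61.6 and 57.9 CPM in VLDLR_KO, ROBO4_KO and WT (adjusted p = 0.254 in VLDLR_KO against WT, edgeR), and it was called after B (log2 fold change 0.35, adjusted p = 0.0258).

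Of 5 peptidases that can shorten neuropeptide Y, only Xpnpep1 was tested, and it rose in VLDLR_KO. Xpnpep1 encodes an aminopeptidase that removes the residue in front of a proline at the start of a peptide. It had 57.1, 63.9, 70.9, 66.8 and 72.7 CPM in VLDLR_KO, 44.0, 43.2, 45.4, 51.6 and 49.8 CPM in ROBO4_KO and 53.8, 46.6, 49.6, 43.6 and 46.3 CPM in WT libraries. Every VLDLR_KO library was above every other library. The log2 fold change was 0.47 against WT (SE 0.09, adjusted p = 0.00268) and 0.50 against ROBO4_KO (SE 0.09, adjusted p = 0.00168, edgeR). Dpp4, a membrane peptidase that takes a dipeptide off the start of neuropeptide Y, had at most 4 counts in any library.

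In the secretion list, 7 of 16 genes were tested. Vamp3, a vesicle fusion protein of the recycling pathway, had 98.4, 98.2, 109, 105 and 100.2 CPM in VLDLR_KO, 176, 164, 188, 160.2 and 163 CPM in ROBO4_KO and 170.2, 165, 149, 157 and 171 CPM in WT libraries. Here the VLDLR_KO libraries were below all others. Vamp3 fell by 0.67 log2 units against WT (SE 0.07, adjusted p = 1.40e-05) and by 0.74 against ROBO4_KO (SE 0.07, adjusted p = 5.00e-06, edgeR), and by 0.69 before B and 0.68 after B against WT.

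Rab3d, a small GTPase of secretory granules, had 49.1, 44.4, 66.2, 67.3 and 69.0 CPM in VLDLR_KO, 40.2, 40.6, 52.0, 51.5 and 52.9 CPM in ROBO4_KO and 48.9, 46.9, 37.6, 39.5 and 39.0 CPM in WT libraries. Its VLDLR_KO libraries overlapped both other groups, and within each form they were above them. The log2 fold change against WT was 0.48 (SE 0.14, adjusted p = 0.0421, edgeR), 0.28 before B (adjusted p = 0.0833) and 0.49 after B (adjusted p = 0.00173). Without WT replicate 2, 3, 4 or 5, ROBO4_KO replicate 4 or VLDLR_KO replicate 3, 4 or 5 the adjusted p was 0.0510 to 0.107. The granule genes Chga, Chgb, Scg2, Scg3 and Vgf had at most 4 counts in any library.

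In the list of inhibitory G protein and cyclic AMP genes, 12 of 15 were tested and 1 was called in VLDLR_KO against WT, where 9.31% of all tested genes were called. Adcy3, an adenylyl cyclase, had 6.58, 4.52, 11.3, 14.6 and 10.8 CPM in VLDLR_KO, 20.4, 23.1, 12.8, 20.7 and 22.1 CPM in ROBO4_KO and 22.8, 24.9, 35.5, 38.5 and 24.6 CPM in WT libraries. The VLDLR_KO libraries were below all WT libraries, and 1 ROBO4_KO library fell within the VLDLR_KO range. Adcy3 fell by 1.62 log2 units against WT (SE 0.28, adjusted p = 0.00164) and by 1.05 against ROBO4_KO (SE 0.27, adjusted p = 0.0285, edgeR). Against WT the log2 fold changes were -2.56 before B (adjusted p = 0.00114) and -0.97 after B (adjusted p = 0.0276), a difference of -1.59 (adjusted p = 0.0146). Against ROBO4_KO the adjusted p was 0.0564 to 0.0653 without ROBO4_KO replicate 1, 2, 4 or 5 or VLDLR_KO replicate 1. Pde4b, a phosphodiesterase that breaks down cyclic AMP, had 21.4, 13.4, 5.71, 4.68 and 5.51 CPM in VLDLR_KO, 11.6, 10.6, 4.83, 6.20 and 5.84 CPM in ROBO4_KO and 10.3, 18.2, 7.70, 8.04 and 8.69 CPM in WT libraries. The VLDLR_KO libraries were above WT before B and below WT after B. Over both forms its log2 fold change against WT was -0.06 (SE 0.42, adjusted p = 0.947, edgeR), with 1.10 before B (adjusted p = 0.0116) and -1.42 after B (adjusted p = 0.00719), a difference of 2.52 (adjusted p = 0.00066). Of the 8 tested transcription factors that have been linked with Npy, among them Creb1, Rest, Foxo1 and Nr3c1, 0 were called by edgeR in any of the 3 comparisons, and 0 had an unadjusted p under 0.05 in VLDLR_KO against WT.

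**Figure D4:**
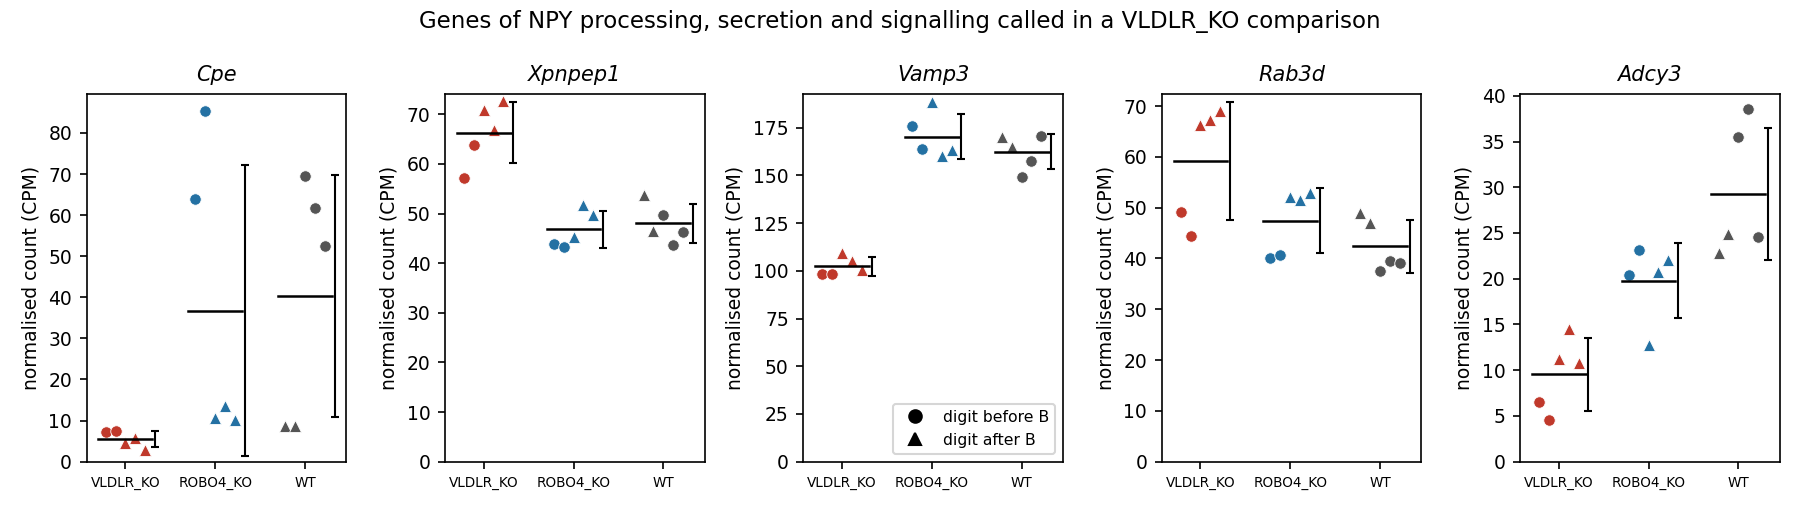
Cpe, Xpnpep1, Vamp3, Rab3d and Adcy3 in every library (CPM, axes from 0) by genotype; circles and triangles are libraries with the digit before and after B, horizontal lines are means and bars SD (n = 5 each). In VLDLR_KO, Cpe (2.91 to 7.37 CPM) and Vamp3 (98.2 to 109 CPM) lie below every other library and Xpnpep1 (57.1 to 72.7 CPM) lies above.

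Markers of neurons and of sympathetic and chromaffin cells were low in every group, while markers of megakaryocytes were in the range of Npy. The 11 neuronal markers summed to 1.90 to 2.73 CPM in VLDLR_KO, 0.639 to 3.75 CPM in ROBO4_KO and 0.853 to 3.8 CPM in WT libraries, where Npy alone had 91.7 CPM or more in ROBO4_KO and WT. Snap25, a synaptic fusion protein, had 0 counts in all 5 VLDLR_KO libraries, 0 to 25 in ROBO4_KO libraries and 0 to 18 in WT libraries. It was 0 in every library with the digit before B. Tubb3 and Stmn2 went the other way, with higher means before B than after B in ROBO4_KO and WT. Tubb3 averaged 0.935 CPM before B and 0.276 after B in ROBO4_KO, and 1.19 and 0.227 CPM in WT. In VLDLR_KO it averaged 0.119 CPM before B and 0 after B. Elavl4, a neuronal RNA-binding protein, was the 1 neuronal marker tested over both forms, and it was called. It had 19 to 43 counts in VLDLR_KO, 0 to 2 counts in ROBO4_KO and 0 to 1 count in WT libraries. The 8 sympathetic and chromaffin markers analysed summed to 3.33 to 8.53 CPM in VLDLR_KO, 5.86 to 13.6 CPM in ROBO4_KO and 6.24 to 9.07 CPM in WT libraries. Th, which encodes tyrosine hydroxylase, had 1 count in all 15 libraries together. The 10 megakaryocyte markers summed to 104 to 242 CPM in VLDLR_KO, 118 to 183 CPM in ROBO4_KO and 157 to 219 CPM in WT libraries, most of it from Vwf, the gene of von Willebrand factor. In each genotype Vwf was higher with the digit before B, at 191 and 204 CPM in VLDLR_KO, 165 and 170.5 CPM in ROBO4_KO and 165 to 207 CPM in WT libraries. Treml1, a platelet receptor gene, had 21.7, 42.8, 8.51, 11.9 and 8.47 CPM in VLDLR_KO, 4.64, 4.82, 2.61, 2.87 and 2.51 CPM in ROBO4_KO and 3.41, 2.97, 4.32, 4.07 and 4.96 CPM in WT libraries. It was the 1 of 4 tested megakaryocyte markers that was called, higher in VLDLR_KO by 2.24 log2 units against WT (SE 0.42, adjusted p = 0.00303) and by 2.42 against ROBO4_KO (SE 0.42, adjusted p = 0.00198, edgeR), and called in both forms. Of all tested genes, 9.31% were called in VLDLR_KO against WT and 7.61% in VLDLR_KO against ROBO4_KO. The part of other cell types in the Npy levels was not tested.

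Markers of stromal cells varied widely between libraries. Among the 6 tested, 1, Col3a1, was called lower in VLDLR_KO against WT (adjusted p = 0.0248, edgeR), where 9.31% of all tested genes were called. The 8 stromal markers summed to 1.96 to 19.1 CPM in VLDLR_KO, 4.55 to 121 CPM in ROBO4_KO and 23.6 to 182 CPM in WT libraries. With the digit before B they summed to 1.96 to 15.9 CPM in VLDLR_KO, 26.1 to 121 CPM in ROBO4_KO and 39.5 to 182 CPM in WT libraries, lowest in VLDLR_KO as Npy was. With the digit after B they summed to 9.80 to 19.1 CPM in VLDLR_KO, 4.55 to 9.37 CPM in ROBO4_KO and 23.6 to 27.1 CPM in WT libraries, so here the VLDLR_KO libraries were above ROBO4_KO and below WT. The 5 endothelial markers summed to 9.28 to 19.5 CPM in VLDLR_KO, 44.3 to 58.6 CPM in ROBO4_KO and 49.2 to 52.7 CPM in WT libraries before B. After B they summed to 10.9 to 28.3 CPM in VLDLR_KO, 4.55 to 12.4 CPM in ROBO4_KO and 10.2 to 12.8 CPM in WT libraries. Both sums were thus lowest in VLDLR_KO before B and not after B. The endothelial sum was almost all Kdr, which averaged 14.1, 50.9 and 50.5 CPM before B in VLDLR_KO, ROBO4_KO and WT. Pecam1, Cdh5, Tek and Robo4 each averaged at most 0.639 CPM in any genotype. The macrophage markers summed to 19227 to 34310 CPM in VLDLR_KO, 12848 to 15495 CPM in ROBO4_KO and 11227 to 17617 CPM in WT libraries. Lyz2 alone averaged 17950, 7788 and 7509 CPM in VLDLR_KO, ROBO4_KO and WT, so the higher sum in VLDLR_KO came mostly from this 1 gene. Of the 10 genes, Lyz2 was called higher and Adgre1 and Fcgr1 lower in VLDLR_KO against WT (edgeR), where 9.31% of all tested genes were called.

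Because Npy was chosen for being near 0 in VLDLR_KO, its place among all genes is a description only. Among the 7788 genes with at least 10 CPM in every ROBO4_KO and WT library, genes were ordered by their mean CPM in VLDLR_KO as a share of the mean of the other libraries, a rule added after the values were seen. Npy was at 0.00674%. The next genes were Rab6b, a Golgi trafficking GTPase on chromosome 9, at 0.272%, C77080 on chromosome 4 at 0.290%, Rnaset2b, a lysosomal ribonuclease on chromosome 17, at 0.615% and Trim30d, a tripartite motif gene on chromosome 7, at 0.929%. These 5 genes were the ones under 1%, and they lie on 5 different chromosomes. The next gene in the order, Trim12a at 1.10%, starts at 104299893 on chromosome 7, close to Trim30d, which starts at 104470014. Trim34a, described below, starts at 104244444 on the same chromosome. Rnaset2b and Trim30d have close copies in the genome, so reads between copies could be split.

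The genes whose log2 CPM followed Npy most closely over the 15 libraries were picked as the highest of 11667 correlations, so Pearson's r is given as a description, with no p. They were C77080 (r = 0.998), Trim34a (0.994), Zfp429 (0.991), Gm32687 (0.990) and Rab6b (0.988). All are low in VLDLR_KO, which sets these values. C77080 had 0.761, 0.773, 0.846, 0.725 and 0.583 CPM in VLDLR_KO, 322, 279, 190.4, 167 and 139 CPM in ROBO4_KO and 201, 215, 341, 346 and 343 CPM in WT libraries. Its ROBO4_KO and WT libraries were higher with the digit before B, as those of Npy were. Trim34a had 6.96 to 8.98 CPM in VLDLR_KO, 25.6 to 30.3 CPM in ROBO4_KO and 23.2 to 31.0 CPM in WT libraries. Zfp429, a zinc finger gene, had 0.264 to 0.613 CPM in VLDLR_KO, 8.65 to 10.1 CPM in ROBO4_KO and 8.52 to 11.8 CPM in WT libraries. Gm32687 had 0 counts in every VLDLR_KO library, 2.54 to 3.91 CPM in ROBO4_KO and 2.86 to 4.22 CPM in WT libraries, below the limit of 10 CPM used for that order.

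Over the 10 ROBO4_KO and WT libraries alone, in which Npy ranged from 91.7 to 271 CPM, the closest genes were Clpp (r = 0.972), a mitochondrial protease, Mrpl17 (0.970), a mitochondrial ribosomal protein, Serpinb6b (0.962), a protease inhibitor, Rhof (0.958), a small GTPase, and Adar (0.955), the RNA-editing adenosine deaminase. The 3 most opposed were Usp45 (-0.978), Pias1 (-0.977) and Ptprj (-0.977), a receptor tyrosine phosphatase. These 10 libraries share the 2 code forms, and 2.95% of the 11667 genes had r beyond 0.9 or -0.9. Serpinb6b had 69.7, 71.3, 26.8, 27.2 and 31.6 CPM in ROBO4_KO and 22.6, 20.1, 93.8, 95.1 and 117 CPM in WT libraries, the same order of genotype and form as Npy. Clpp had 16.0 to 19.2 CPM in ROBO4_KO and 13.7 to 22.9 CPM in WT libraries, a much narrower range than that of Npy.

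In VLDLR_KO the genes closest to Npy over the 10 libraries were all still detected. Clpp had 16.1 to 34.3 CPM, Mrpl17 27.0 to 38.7 CPM and Adar 65.6 to 88.8 CPM in VLDLR_KO libraries, within or above their ranges in the other libraries. Serpinb6b had 6.30 to 13.0 CPM in VLDLR_KO, below its 20.1 to 117 CPM in the others, and it was still present in every library. Among the 12 tested neighbours, r with Npy over the 10 libraries ran from -0.80 for Mpp6 to 0.77 for Igf2bp3.

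**Figure D5:**
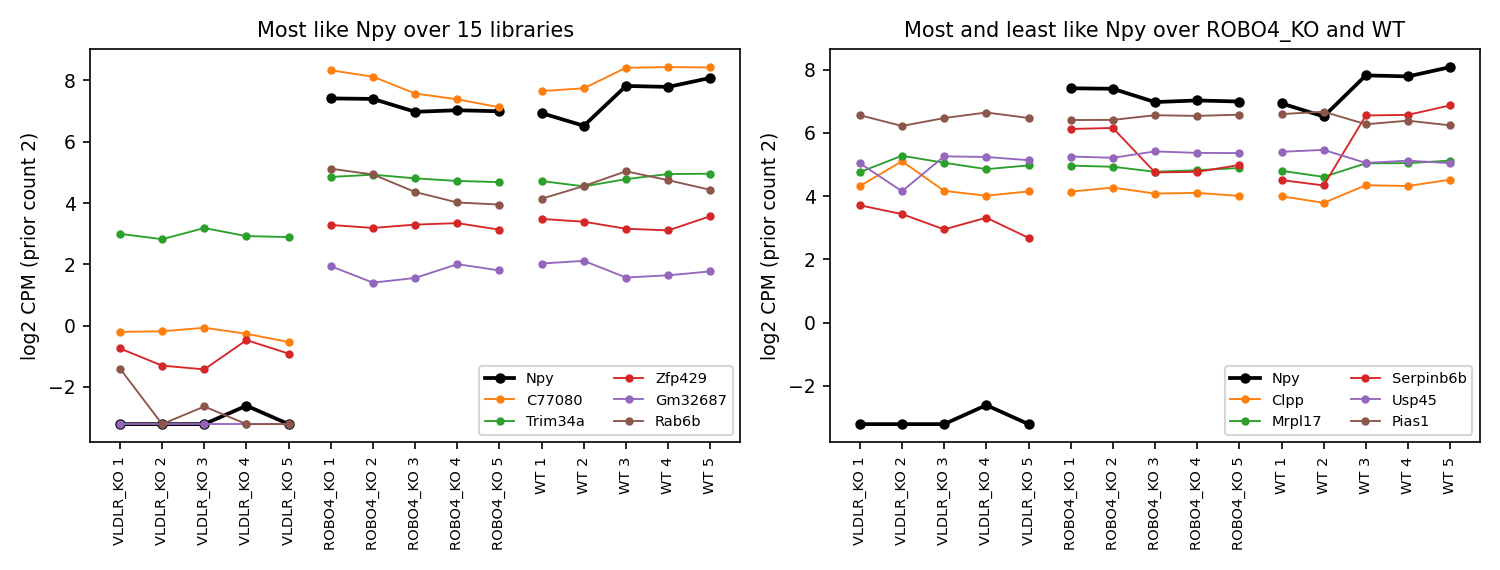
Log2 CPM (prior count 2) of Npy and of the 5 genes most like it over 15 libraries (left), and of Npy with 3 most like and 2 most opposed genes over ROBO4_KO and WT (right), in every library on the x axis. On the left all 6 genes drop in the 5 VLDLR_KO libraries; on the right Npy drops alone to the floor, while the other genes stay measurable.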

How the data were processed

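Estimated counts and length-scaled values (FPKM) per gene and per transcript were deposited by the authors for 15 libraries of total RNA. Per the labels' protocols, the libraries were made with a SMARTER kit and sequenced as paired ends on a BGISEQ-500. HISAT, Bowtie2 and GRCm38.p6 are named in the submitters' processing notes; the quantifier, annotation and strand setting are not given in the sources used here. The header of the length-scaled columns names no unit; FPKM was read from the values. The deposited table also holds the authors' mean counts per set (other averages), log2 fold changes and DESeq2 q-values, per the file headers.

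Expected counts as deposited were rounded to whole numbers (92.6% of gene counts were whole). Genes were filtered with filterByExpr, which left 11668, scaled by TMM, and tested with edgeR 4.0.16 (R 4.3.3) with 1 coefficient per genotype over all libraries; a call is a Benjamini-Hochberg adjusted p under 0.05. DESeq2 1.42.0 was an alternative. Log2 CPM used a prior count of 2. Depth was 18132866 to 19005966 counts per library. The scripts were tested on simulated data. Motifs were searched in RefSeq promoter windows of GRCm38.p6, which is the build of the files.

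Genes named are Npy, the nearest and the called or most abundant neighbours, called list members, NPY ligands and receptors, and the genes most like Npy. The members and lists were chosen with earlier results of these data known. Alternatives were other scaling (RLE), no filter on low counts, DESeq2, code form as a covariate or block, fits within each form, fits of 2 genotypes, other windows, and leaving out each library.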

Additional observations from a re-analysis of the deposited data

Results flagged for a closer look

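With 54 groups of 5 libraries examined for a library far from the others, 3 were marked, and chance marks about 1 in 20. Malsu1, a neighbour of Npy, had 13.9 CPM in VLDLR_KO replicate 2, against 7.66 to 9.16 CPM in the other 4. Tra2a, another neighbour, had 65.5 CPM in ROBO4_KO replicate 2, against 61.2 to 62.2 CPM in the others. Adcy3 had 12.8 CPM in ROBO4_KO replicate 3, against 20.4 to 23.1 CPM in the others. No library of Npy itself was marked.

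The code forms were also compared in the 12 tested neighbours, the 34 tested pathway genes and the tested markers. Those markers were 10 macrophage, 6 stromal and 4 megakaryocyte genes, 2 each of the endothelial, glial, neutrophil and sympathetic lists, and 1 each of the neuronal and osteoblast lists. Among all of these, 15 differences between genotypes themselves differed between the code forms (edgeR interaction term, before B minus after B, adjusted over all tested genes). For VLDLR_KO against WT, where 15.2% of all tested genes were called, the neighbours were Tmem176b at 3.04 log2 units (adjusted p = 0.00102) and Tmem176a at 3.48 (adjusted p = 0.00109). The pathway genes were Cpe at -2.10 (adjusted p = 0.00211), Adcy3 at -1.59 (adjusted p = 0.0146), Vamp2 at 0.57 (adjusted p = 0.0186), Adcy6 at -4.88 (adjusted p = 0.0335) and Pde4b at 2.52 (adjusted p = 0.00066). The macrophage markers were Csf1r at 1.09 (adjusted p = 0.000239), Lyz2 at 1.60 (adjusted p = 0.000239), Cd14 at 1.88 (adjusted p = 0.000963) and Mertk at 0.71 (adjusted p = 0.0353). Treml1 of the megakaryocyte list gave 1.26 (adjusted p = 0.0342), and Kdr of the endothelial list gave -2.67 (adjusted p = 0.0243). For ROBO4_KO against WT, where 0.403% were called, Pde4b gave 1.78 (adjusted p = 0.0363) and Cd14 gave 1.43 (adjusted p = 0.0338). What the forms stand for was not tested.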

How the results depend on the processing

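The Npy levels kept their values under RLE scaling, library totals and leaving out each library (ROBO4_KO 138 to 149 CPM, WT 165 to 210 CPM); as the authors' FPKM the means were 368 in ROBO4_KO and 471 in WT, another unit. The Npy difference of ROBO4_KO against WT was 0.26 after B, a reversed sign, 0.27 for the transcript, and -0.54 to -0.19 without 1 library, with adjusted p from 0.457 to 1 under all alternatives. The difference between code forms stayed called (0.61 to 0.87 without 1 library; adjusted p 1.29e-05 to 0.00588). The interaction was called by DESeq2 (-0.76, adjusted p = 0.025) and not by the other alternatives (-0.98 to -0.56 without 1 library).

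For VLDLR_KO against WT, all called genes numbered 1678 by DESeq2, 1957 with code form as a covariate, 2442 before B, 1839 after B and 713 with 2 genotypes, against 1086. For VLDLR_KO against ROBO4_KO these were 1394, 1868, 1500, 1741 and 507, against 888. For ROBO4_KO against WT they were 87 by DESeq2, 75 with the covariate, 20 before B and 188 after B, against 39. Called neighbours in VLDLR_KO against WT were 5 before B, where 20.5% of all tested genes were called, and 1 after B, where 15.7% were. In a window of 500 kb there was 1, against 2 in the main fit. In VLDLR_KO against ROBO4_KO called neighbours were 2 by DESeq2, 4 with the covariate, 5 before B and 2 after B, and 1 to 2 without 1 library, against 1. Called pathway genes in VLDLR_KO against WT were 8 with the covariate, 10 after B and 3 to 8 without 1 library, against 5. In VLDLR_KO against ROBO4_KO they were 7, 7 and 2 to 4, against 4. In ROBO4_KO against WT there was 1 after B, where 1.60% of all tested genes were called, against 0. For both VLDLR_KO comparisons, the fits by DESeq2, with the covariate and within a form also called more of all tested genes, as given above. The cause was not tested.

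Of the 12 pairs of libraries that share a code form and digit, 4 correlated above 0.1 (median -0.19). Of the 25 pairs with different digits, 14 did (median 0.15). Where a genotype and form had 2 libraries, their deviations mirrored each other, so these correlations are not independent and cannot exclude pairing. The main fits did not use code form and digit as a replicate block. With that replicate block, called neighbours in VLDLR_KO against ROBO4_KO were 3, the Npy difference of ROBO4_KO against WT was -0.08, and no other count moved by over 1.5 times. For the 16 results on named genes other than Npy's own, which are given above, 316 alternative values were made, of which 283 stayed as they were, 31 lost the threshold and 0 reversed; 2 counts of likest genes moved, with 0 of 5 shared over 15 libraries and 1 of 5 over 10 when ranked by Spearman's rho. At this depth Npy in VLDLR_KO could be bounded only to about 3 counts per library.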
